A study of Mus musculus with 2 samples.

Results

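The regions described here were 457 ultraconserved regions read by plus-strand probes on a mouse lncRNA array, each on 1 spot per array. They were chosen by probe name alone, as the array design names such probes by the region's number and a strand sign (uc.77+, for example). Of 481 plus-strand regions on the array, 24 that belong to genes for RNA processing were left out, and the numbers of the others ran from 1 to 483. The genes of the others were not checked, so some may belong to such genes as well. The array held 960 usable features for ultraconserved regions on both strands and 59625 usable features in all.

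Lung RNA was compared between control mice and mice with fibrosis caused by paraquat, a herbicide that accumulates in the lung and damages its epithelium by redox cycling. All mice were male BALB/c mice of 8 weeks, with 10 mice in a group per the labels, and the lower lobe of the right lung was used. The paraquat group received intraperitoneal paraquat at 10 mg/kg daily for 5 days, and the control group received the same volume of saline. Lungs were taken on day 12 after the first injection, and 3 lungs per group were mixed into 1 RNA pool and measured on 1 array. The arrays therefore give no replicate check of any difference below, and no test was run here. A difference between the 2 arrays cannot be told apart from a difference between the groups. Mortality in the paraquat group was 70%, and the labels do not say how the 3 lungs were picked. In RNA from whole lung, fewer cells of a type and less RNA per cell cannot be told apart. Markers of lung cells were not checked here, because the array files name few probes by gene.

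Ultraconserved regions are stretches of genome that are identical in human, mouse and rat, and they are numbered along the human chromosomes. Many lie inside or beside genes for developmental transcription factors and act as enhancers, others overlap exons of genes for RNA-binding proteins, and part of them is transcribed into noncoding RNA. Transcribed ultraconserved regions have been studied mostly in tumours, where some are silenced by methylation and others are overproduced. The region taken up for further work in the study was uc.77, which the study assigns to Zeb2 by overlap, the gene of a transcription factor that represses E-cadherin and drives epithelial-mesenchymal transition. The paper reports that quantitative PCR on biological replicates also found the transcript of this region higher in paraquat lung. Reverse transcription for it used random hexamers, so that PCR cannot tell the plus strand from the minus strand. The quantitative PCR primers for uc.77 are given here because they are the sequence through which this transcript was followed.
uc.77 forward primer: ctgtcacactgctcccaaga
uc.77 reverse primer: tcagccaaagatgcttgaaa
Each primer has 20 bases and is written 5′ to 3′ in lower case.

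Transcription from these regions was found in a minority of them. A region was called detected where the scanner software marked its spot as well above background. Of the 457 regions, 117 (25.6%) were detected on both arrays, 38 (8.32%) in control lung alone, 20 (4.38%) in paraquat lung alone, and 282 (61.7%) on neither. Detection on at least 1 array thus covered 175 regions (38.3%), against 67.2% of all features on the array. It was 87.5% (21 of 24) among the plus-strand regions of RNA-processing genes that were left out. The control array detected 155 regions (33.9%) and the paraquat array 137 (30.0%), while over all features the shares were 62.7% and 58.6%. More regions dropped below background with paraquat than emerged from it, and the loss was of the same kind in the features at large. Of the 457 spots 199 sat at 3.86 on the control array, the lowest signal given to any region there, so their levels have no order.

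**Figure D1:**
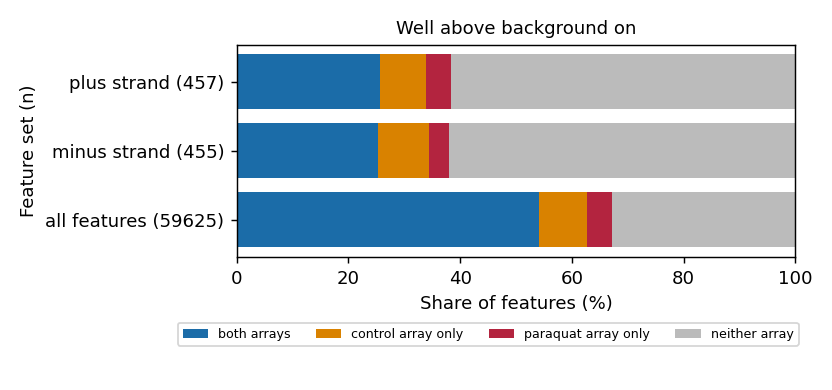
Share of features in percent by detection on both arrays, in control lung alone, in paraquat lung alone or on neither array, for the plus-strand regions, the minus strand of the same regions and all features. Regions detected on neither array make up 61.7% of the 457 plus-strand regions and 32.8% of all features.

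Signals of the detected regions were mostly low. Among the 117 regions detected on both arrays, signals ran from 21.4 to 14439 on the control array with a median of 103, and from 14.8 to 8967 on the paraquat array with a median of 52.0. The medians over all features detected on both arrays were 192 and 101, so the regions were dimmer than the typical feature in both lungs. The paraquat array was dimmer as a whole. Its median log2 signal was 4.60 against 5.43 on the control array before normalization, and quantile normalization set both distributions equal. Differences below are log2 values of paraquat lung less those of control lung after this step, so a region whose raw signal was steady received a positive difference.

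A few regions stood out in brightness on both arrays. The brightest was uc.154+, with signals of 14439 in control and 8967 in paraquat lung and a difference of -0.46. Next came uc.471+ with 4089 and 3476 (difference 0.21) and uc.356+ with 4877 and 1354 (difference -1.33). Further regions among the 10 brightest were uc.415+ (3759 and 709), uc.481+ (2578 and 840), uc.16+ (2325 and 411) and uc.203+ (2200 and 368), all lower on the paraquat array. By contrast uc.427+ (1936 and 1491), uc.30+ (944 and 1051) and uc.432+ (765 and 793) had differences of 0.24, 0.89 and 0.83. The bright regions therefore did not share a direction, with 4 above 0 and 6 below. Among the 9 settings of normalization and background, the sign turned in 4 for uc.471+, in 2 for uc.154+ and in 1 for uc.427+, so these 3 have no settled direction.

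**Figure D2:**
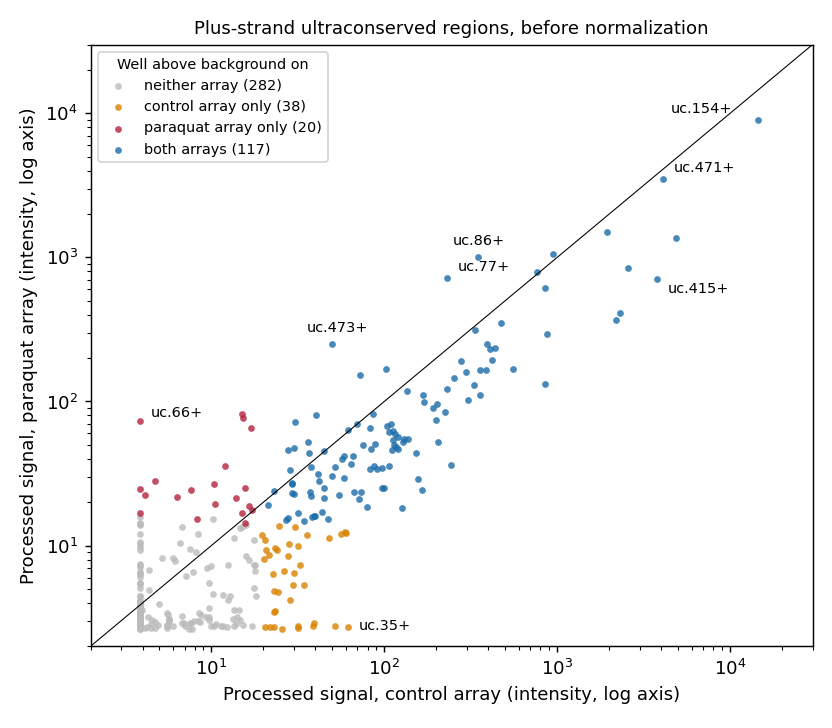
Processed signal of each region on the control array against that on the paraquat array, both on log axes, with regions coloured by detection. Most detected regions lie below the line of equal raw signal, since the paraquat array was dimmer, and uc.77+, uc.473+ and uc.86+ lie above it.

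Taken over the 117 regions detected on both arrays, the differences centred on 0. Their median was 0.00 on the log2 scale, with quartiles at -0.49 and 0.41, and all features detected on both arrays had a median of -0.04 with quartiles at -0.59 and 0.57. There were 59 regions above 0 and 58 below. Within 2-fold lay 92 of the 117 regions (78.6%), against 71.2% of all such features. At least 2-fold higher on the paraquat array were 12 regions (10.3%, background 15.2%), and at least 2-fold lower were 13 (11.1%, background 13.6%). The spread of the regions was thus somewhat narrower than that of the array. The error that the scanner software assigns to a single spot gave errors of 0.20 to 0.39 for these differences, and 57 regions (48.7%) differed by more than 2 such errors, 26 higher and 31 lower, against 57.6% of all features detected on both arrays. This error covers the reading of a spot and not animals, RNA or hybridization. The 15 genes spotted repeatedly on the array had an SD of the difference between spots of 0.19 in the median and up to 1.41.

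The largest increases among regions detected on both arrays belonged to uc.473+ and uc.77+. The signal of uc.473+ was 49.7 in control and 249 in paraquat lung, a 9.14-fold difference after normalization (3.19 on the log2 scale, spot error 0.23). That of uc.77+ was 231 and 718, a 5.53-fold difference (2.47, spot error 0.21). In the normalized log2 values that the authors deposited, the differences of uc.473+ and uc.77+ were 3.04 and 2.33. The latter was just past the 5-fold threshold of 2.32 on this scale. Both were brighter on the paraquat array even before normalization. Just short of 5-fold was uc.86+, with 348 and 1000 and a difference of 2.31 (4.97-fold). These 2 regions past 5-fold made 1.71% of the 117, against 2.77% of all features detected on both arrays, and 0 regions were at least 5-fold lower, against 1.78%.

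Another 9 regions were at least 2-fold higher. The signal of uc.12+ went from 30.5 in control to 71.6 in paraquat lung (difference 2.08), that of uc.472+ from 72.4 to 153 (1.99), and that of uc.359+ from 40.4 to 80.3 (1.86). Smaller differences were those of uc.34+ (103 and 168, difference 1.62), uc.463+ (27.9 and 46.0, difference 1.55), uc.339+ (30.2 and 47.4, difference 1.48) and uc.25+ (36.2 and 52.5, difference 1.39). Last came uc.13+ (36.5 and 44.0, difference 1.12) and uc.123+ (28.4 and 33.5, difference 1.05), whose raw signals were nearly level. Apart from uc.77+, uc.86+, uc.34+ and uc.472+, the higher regions had control signals below 50, close to the lowest detected signal of 19.4 on that array. The numbers put uc.471+, uc.472+ and uc.473+ next to each other, and their differences were 0.21, 1.99 and 3.19.

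The regions at the lower end included several bright ones. The signal of uc.203+ was 2200 in control and 368 in paraquat lung (difference -1.86), that of uc.415+ 3759 and 709 (-1.80), and that of uc.16+ 2325 and 411 (-1.78). Of middle brightness was uc.285+, with 851 and 132 (-1.81). The most negative difference was that of uc.256+, with 127 and 18.3 (-1.94), followed by uc.267+ with 165 and 24.5 (-1.88) and uc.409+ with 244 and 36.5 (-1.85). The other regions of the lowest 12 were uc.425+ (-1.54), uc.356+ (-1.33), uc.475+ (-1.24), uc.131+ (-1.14) and uc.407+ (-1.08). All 12 were dimmer on the paraquat array by more than the array-wide drop, which follows from how they were picked. Every one kept its sign under each normalization tried, but each setting used the same 2 arrays.

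**Figure D3:**
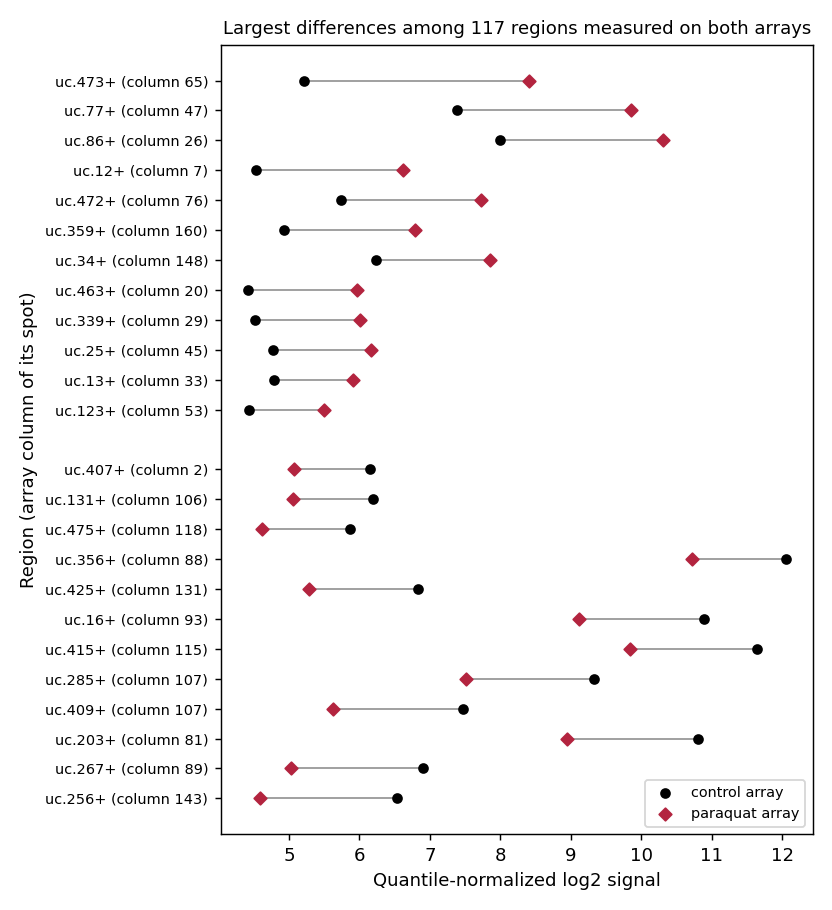
Normalized log2 signals in control and paraquat lung for the 12 regions with the most positive and the 12 with the most negative difference among those detected on both arrays. Differences run from 3.19 for uc.473+ to -1.94 for uc.256+, with 1 array per group and no error between animals.

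When the regions read on a single array were included, which gave 175 in all, 13 (7.43%) passed 5-fold higher with paraquat as measured, against a background of 5.54%, and 9 (5.14%) passed 5-fold lower, against 4.56%. These shares were near those of the array. Of the 13 higher regions, 11 were detected on the paraquat array only, so their control value was not a measured level. They were uc.66+, uc.94+, uc.169+, uc.458+, uc.294+, uc.265+, uc.344+, uc.362+, uc.167+, uc.19+ and uc.177+. The undetected side was then raised to the lowest detected signal of its array (19.4 for control, 13.2 for paraquat, before normalization). On the quantile-normalized scale 6 regions were still at least 5-fold higher, against 3.07% of all features, and 0 were at least 5-fold lower, against 2.04%.

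The 20 regions detected on the paraquat array only had signals of 14.5 to 81.7 there, with a median of 23.5. The brightest was uc.169+, with 81.7 in paraquat lung and 15.1 in control, which made it at least 7.44-fold higher. The signals of uc.294+ were 15.2 and 77.1 (at least 7.00-fold higher), those of uc.66+ 3.86 and 73.1 (at least 6.65-fold), and those of uc.344+ 17.0 and 65.9 (at least 5.96-fold). These bounds hold for the quantile-normalized signals alone. With normexp the measured differences of uc.169+, uc.294+, uc.66+ and uc.344+ were 1.19, 1.17, 0.88 and 1.07, and with the local median subtracted those of uc.169+, uc.294+ and uc.344+ were 1.89, 1.56 and 1.25, each smaller than its bound. Of the other regions, uc.177+ was at least 3.19-fold and uc.458+ at least 2.48-fold higher, but with the local median subtracted uc.177+ was at 0.52 and uc.458+ at 0.41 on the log2 scale. A bound of 2-fold or more was reached by 10 of the 20. Its share over all paraquat-only features was not computed, so this count cannot be set against the array.

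The 38 regions detected on the control array only were dim, with signals of 19.7 to 61.7 there and a median of 27.8. The 9 regions called at least 5-fold lower as measured were all among them: uc.35+, uc.437+, uc.289+, uc.261+, uc.106+, uc.237+, uc.461+, uc.343+ and uc.3+. Their control signals were 21.8 to 61.7, and their paraquat signals were 2.91 or less. Against the detection limit none of the 38 reached 5-fold, and 6 reached 2-fold. The 2-fold share over all control-only features was not computed, so the count of 6 cannot be set against the array. The signals of uc.35+ were 61.7 in control and 2.74 in paraquat lung (at least 2.70-fold lower), and those of uc.18+ were 60.1 and 12.3 (at least 2.64-fold lower). Next were uc.85+ (at least 2.61-fold), uc.257+ (2.48-fold), uc.437+ (2.30-fold) and uc.398+ (2.12-fold). These bounds too were computed on the quantile-normalized signals, not on the raw signals printed here. The paraquat-only and the control-only regions were each picked by the array where they are high, so their bounds were not compared.

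The position of a spot on the array moved with these calls. The array has 164 columns, of which 183 regions lay in columns 1 to 64, 48 in columns 65 to 80 and 226 above 80. Of the 13 higher regions, 12 lay in columns 1 to 64 and uc.473+ lay in column 65, and all 9 lower regions lay in columns 86 to 120. At least 5-fold higher in columns 1 to 64 were 12 of 51 detected regions (23.5%), against 10.3% of all features there, and above column 80 it was 0 of 106, against 2.58%. At least 5-fold lower above column 80 were 9 of 106 (8.49%), against 4.42% of all features there, and in columns 1 to 64 it was 0 of 51, against 4.55%. Over all features the share of higher calls thus differed by column, and that of lower calls did so little. With detection on both arrays required, 1 of 32 regions (3.1%) in columns 1 to 64 was at least 5-fold higher, against 5.17% of all such features there. Above column 80, 0 of 71 were at least 5-fold lower, against 1.85%. The larger shares of the regions thus came from spots detected on 1 array. Of the 20 paraquat-only regions 15 lay in columns 1 to 64, where 1734 of all 2668 paraquat-only features lay, and of the 38 control-only regions 34 lay above column 80, where 3083 of all 5136 control-only features lay. Among regions detected on both arrays, the median difference was 0.21 in columns 1 to 64 (n = 32) and -0.24 above column 80 (n = 71), and over all features it was 0.36 and -0.20. These medians of the regions and of the array at large were ordered by column in the same way. The design places no region on more than 1 spot, so a region cannot be read at a second position.

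**Figure D4:**
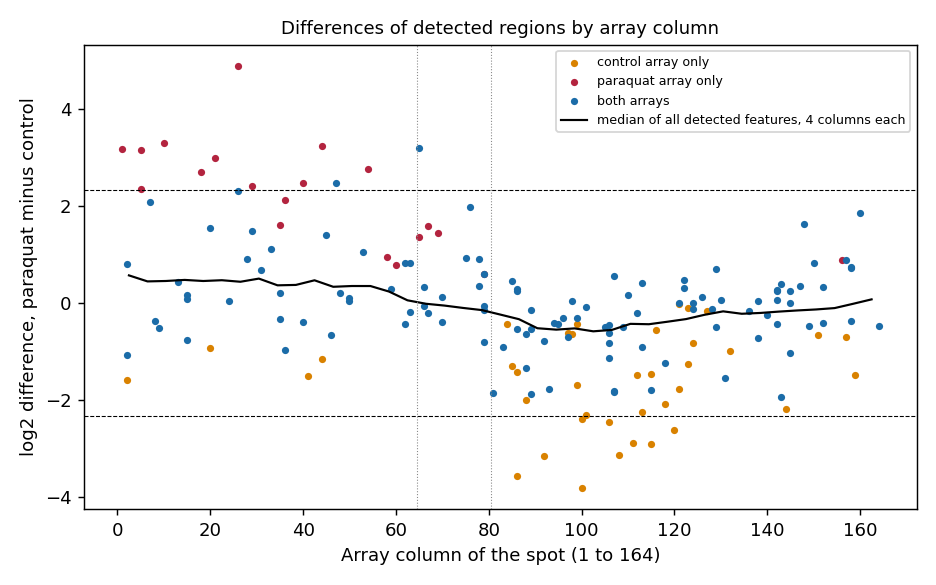
Log2 difference, paraquat minus control, of each detected region against the array column of its spot, coloured by detection, with the median of all features detected on at least 1 array as a solid line, dashed lines at 5-fold and dotted lines beside columns 64 and 80. The regions at least 5-fold higher lie in columns 1 to 65, and those at least 5-fold lower in columns 86 to 120.

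To give values relative to their surroundings, the median difference of the 50 nearest detected features of similar signal was subtracted from each region. This left 2 regions at least 5-fold higher, uc.66+ (4.27) and uc.473+ (2.63), against 3.69% of all features, and 4 at least 5-fold lower, uc.437+ (-2.57), uc.289+ (-2.37), uc.261+ (-2.35) and uc.35+ (-2.33), against 4.05%. Of these 6 only uc.473+ was detected on both arrays. The value of uc.77+ in column 47 went from 2.47 to 2.16, below 5-fold, and that of uc.86+ in column 26 from 2.31 to 1.59. Among the higher regions detected on both arrays, uc.12+ in column 7 went from 2.08 to 0.93 and uc.13+ in column 33 from 1.12 to -0.29, while uc.25+ in column 45 went from 1.39 to 1.30 and uc.34+ in column 148 stayed at 1.62. Regions detected on the paraquat array alone did not move alike. The measured difference of uc.66+ went from 4.89 to 4.27, and that of uc.58+ rose from 1.44 to 1.81. Several others lost more. The measured difference of uc.94+ went from 3.29 to 0.40, that of uc.458+ from 3.18 to 0.41, that of uc.177+ from 2.36 to 0.52, that of uc.294+ from 3.15 to 1.56, that of uc.344+ from 2.76 to 1.25 and that of uc.169+ from 3.24 to 1.89. These 6 were all below 5-fold after the subtraction. On the lower side uc.203+ stayed near -1.85 and uc.16+ went from -1.78 to -1.65, whereas uc.409+ went from -1.85 to -1.29, uc.267+ from -1.88 to -1.39, uc.415+ from -1.80 to -1.39 and uc.475+ from -1.24 to -0.74.

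The strand is taken from the sign in the probe name, and which RNA strand a probe binds is not given in the sources used here. For 41 regions both strands were detected on both arrays, which allows the plus-strand difference to be set beside the minus-strand difference of the same region. The plus strand had the more positive difference in 28 of 41 regions, and the plus minus the minus difference had a median of 0.41 with quartiles at -0.10 and 1.21. The strands had the same sign in 24 regions, with 12 higher and 12 lower on both, while 13 were higher on plus and lower on minus and 4 the reverse. Across these 41 regions, which share the 2 arrays, the Pearson r between the strands was 0.08 and the Spearman rho 0.16. The difference of one strand thus said little about the other. After the local median was subtracted the median strand difference was 0.14.

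Among these 41 regions the strands differed most in uc.77. The plus strand went from 231 in control to 718 in paraquat lung, whereas the minus strand went from 279 to 32.8, a difference of -2.20. The strand difference of 4.66 had a spot error of 0.32, and the 2 probes lay in columns 47 and 64. The next on the side of the plus strand was uc.12, with 2.07, where the minus strand had signals of 131 and 70.3 and a difference of 0.01. The uc.12 probes lay in columns 7 and 51. With the local median subtracted, the differences were 0.93 on plus and -0.32 on minus, so this rank is of the values before that subtraction. In uc.420 both strands were lower, the plus strand by less (203 and 52.5, difference -1.04) than the minus strand (19786 and 2114, difference -2.85). The opposite pattern appeared in uc.462, whose plus strand had 111 and 46.0 (-0.37) and whose minus strand had 209 and 465 (2.03), and in uc.141, with 97.3 and 34.4 on plus (-0.62) and 5177 and 13341 on minus (1.68). In uc.34 both strands were higher, by 1.62 and 1.29. Of the 41 regions uc.77 and uc.462 had strands at least 5-fold apart. In another 37 regions 1 strand was detected on both arrays and the other on a single array, and against the detection limit 4 of them were at least 5-fold apart, uc.136, uc.161, uc.169 and uc.251. The widest was uc.161, whose minus strand had 56751 in control and 9.31, not well above background, in paraquat lung, while its plus strand had 110 and 70.3 (difference 0.26). As measured, that minus-strand difference was -12.2, whereas the most negative among all features detected on both arrays was -7.38. With 1 array per group this extreme value has no second reading.

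**Figure D5:**
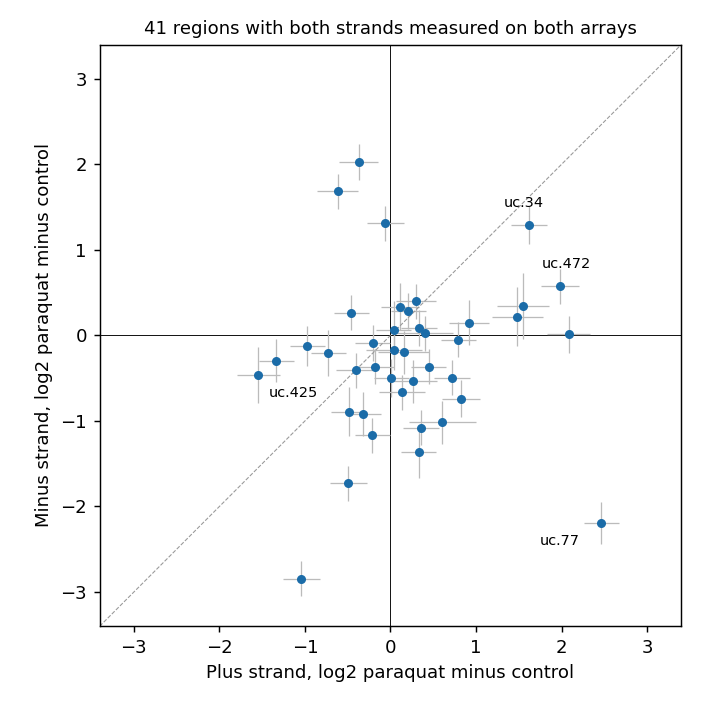
Log2 difference, paraquat minus control, of the plus-strand probe (horizontal axis) and of the minus-strand probe (vertical axis) for the 41 regions with both strands detected on both arrays, with bars of 1 spot error from the scanner software and a dashed line of equal values. The points scatter without a line, and uc.77 lies apart with 2.47 on plus and -2.20 on minus.

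Detection of the strands overlapped in part. A minus-strand probe was detected on at least 1 array for 83 of the 175 regions with a detected plus strand (47.4%), and for 31.9% of the 282 regions without one. The plus strand alone was detected in 91 regions, the minus strand alone in 90 and no strand in 191, and 2 minus-strand probes were not used because of outlier marks. Minus-strand detection as a whole was 38.0% of 455 regions, close to the 38.3% of the plus strand.

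Neighbouring numbers, which often mark regions of the same locus, were compared as well. Where a region was detected, the next number was detected in 68 of 168 cases (40.5%), and where it was not, in 99 of 267 (37.1%). The longest run of detected numbers went from uc.265+ to uc.271+ (7 regions), and runs of 5 went from uc.425+ to uc.429+ and from uc.469+ to uc.473+. Over 32 neighbouring pairs detected on both arrays, 17 had differences of the same sign, with a Pearson r of 0.30 and a Spearman rho of 0.23. Around uc.77+, the regions uc.74+, uc.76+, uc.78+, uc.79+ and uc.80+ were not detected on any array, and uc.75+ had signals of 472 and 351 with a difference of 0.45. The large difference at uc.77+ was therefore not seen in the neighbour that could be read.

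A list of 12 regions with earlier work on their transcripts gave few readable levels. In this list uc.173+ is known for intestinal epithelial renewal and uc.475+ for its place in Ogt and its response to hypoxia, uc.339+ and uc.454+ have been studied in lung cancer, and uc.160+, uc.283+ and uc.346+ are silenced by methylation in tumours. Detected on both arrays were 4 of the 12. The signals of uc.73+ were 65.8 and 41.5 (difference 0.21) and those of uc.173+ 75.5 and 50.04 (0.30), and without normalization the signs of both turned, to -0.66 and -0.59. The values of uc.339+ (30.2 and 47.4, difference 1.48) and uc.475+ (79.1 and 18.7, difference -1.24) moved in opposite directions. The other 8 (uc.8+, uc.63+, uc.160+, uc.283+, uc.346+, uc.372+, uc.388+ and uc.454+) were detected on neither array, with signals of at most 17.6 in control and 5.04 in paraquat lung.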

How the data were processed

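Lung RNA of each group, mixed from 3 lungs, was depleted of rRNA, amplified with random primers along the transcripts and hybridized to a 1-colour Agilent array annotated on mm9. Spot intensity values deposited by the authors came from Feature Extraction 10.7.3.1, background-subtracted and detrended, with a multiplicative detrending in the paraquat file alone. A deposited table of 14331 probes holds quantile-normalized log2 values, with a rank correlation of 1 with the signals and a slope of 0.946 between the differences, which served as an alternative.

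Here log2 of the processed signal was quantile-normalized over 59625 features, as in the methods, after outlier spots were left out. Counts at 5-fold used features well above background on at least 1 array. An undetected side gave a bound against the lowest detected signal. The local median used the 50 nearest detected features within 1 log2 unit of signal. No test was possible with 1 array per group, and the number of arrays limits the precision.

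The regions, lists and rules were chosen with earlier results of these data known. The text names regions at or past 5-fold, the 12 highest and 12 lowest differences, the 6 largest bounds of each kind, the 10 brightest, the 12 of the list with earlier work, and the neighbours and both strands of uc.77. The strand pairs of uc.12, uc.34, uc.136, uc.141, uc.161, uc.251, uc.420 and uc.462, the members of the runs of numbers and uc.471+ as a neighbour were picked after their values were seen. No sequence or position of a region was used. Quantile normalization and the 5-fold call were tested on simulated data, with changes planted in features brighter than most regions described here. Detection, bounds and the local median were not part of that test. R 4.3.3 with limma 3.58.1 and Python 3.11.15 with pandas 2.3.3, numpy 2.4.6, matplotlib 3.10.9 and scipy 1.17.1 were used.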

Additional observations from a re-analysis of the deposited data

How the results depend on the processing

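The counts of regions past 5-fold depended on how dim spots were treated. Against 13 higher and 9 lower, there were 7 and 24 without normalization, and 0 and 0 with normexp and an offset of 50. Without background subtraction there were 1 and 0, and after subtraction of the local median 2 and 4. There were 2 and 0 among regions detected on both arrays, and 6 and 0 with dim signals raised to the lowest detected signal. The authors' processed values gave 4 and 0, but they hold 101 of the 175 regions. Of these 101, 2 were detected on the control array only, the kind that made up the 9 lower calls. At 3-fold there were 21 and 23, and at 2-fold 28 and 38. Over all features the shares higher and lower were 2.48% and 10.4% without normalization, 0.863% and 0.599% with normexp, 1.06% and 0.779% without background subtraction, 2.73% and 1.05% in the processed values, 10.9% and 9.90% at 3-fold, and 18.2% and 18.9% at 2-fold. The regions' own shares of 175 were 4% and 13.7% without normalization, 12% and 13.1% at 3-fold, and 16% and 21.7% at 2-fold. In the processed values the shares of 101 were 3.96% and 0%. Above column 80 the count of higher regions was 0, and in columns 1 to 64 that of lower regions was 0. The 75th percentile and median shifts each gave 14 and 7 (8% and 4%), and loess gave 14 and 9 (8% and 5.1%). Over all features the shares were 6.4% and 3.5% with the 75th percentile shift, 5.8% and 4.0% with the median shift, and 6.1% and 4.0% with loess. With no filter on dim features there were 17 and 9 of 457 regions (3.72% and 1.97%), against 4.06% and 3.07% of all features. Quantile normalization over features detected on both arrays gave no counts, since features detected on 1 array have no value there.

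The median difference of 0.00 became -0.85 without normalization, where the median of all features detected on both arrays was -0.83, -0.24 above column 80 and 0.21 in columns 1 to 64. The median strand difference of 0.41 became 0.14 with the local median and 2.07 in columns 1 to 64, where 3 pairs remained. The sign was the same under each normalization and background setting for 11 of the 12 highest regions, with uc.13+ as the exception, and for the 12 lowest. The difference of uc.77+ ranged from 1.63 without normalization to 2.56 with the 75th percentile shift and passed 5-fold in 5 of 9 settings, and that of uc.473+ from 2.07 with normexp to 3.33 with loess, in 8 of 9. No paired analysis was possible because each group had 1 array.

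Signals under 19.4 in control and 13.2 in paraquat lung give bounds only. With 1 array per group, animals, RNA pools, hybridizations and array positions cannot be told apart from the treatment.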
